A study of Mus musculus with 12 samples.

Results

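The genes described here mark vascular endothelium, the cells that line blood and lymph vessels, and the kinds of vessel they come from. The set holds 46 genes of 18193 that the arrays measured. Each was chosen by name, and its value is that of the Affymetrix probe set with the highest mean log2 signal over the 12 arrays, among probe sets annotated with that symbol and no other. RNA was taken from 6 spontaneous lung tumours and 6 normal lungs, 1 array each, all from untreated B6C3F1 mice 2 years old. B6C3F1 is the hybrid of C57BL/6 and C3H parents used in long-term rodent bioassays. No genetic change or agent separates the groups: the normal lungs are the controls. RNA came from homogenised frozen tissue, not from sorted cells, and the labels give neither sex nor whether samples came from separate animals, so each p-value reflects only how these samples scatter, which may be technical.

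Lung endothelium is mostly capillary, and its cells share junction proteins, ETS family transcription factors and receptors that keep the vessel wall quiescent and the blood fluid. Arteries, veins and lymphatics each add genes of their own, and inflammation switches on adhesion molecules that catch leukocytes. In lung, capillary endothelium forms the blood side of the gas exchange surface and converts angiotensin and clears endothelin from the circulation.

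Of the 46 genes, 37 fell in tumours, 0 rose and 9 did not pass the test of limma. At an unadjusted p under 0.05, 0 rose. Over all genes 17.4% fell and 12.1% rose. At least 4-fold falls were found for 23 members, where 3.66% of all genes fell that far. For 33 members every tumour lay below every normal lung, as it did for 11.7% of all genes. The median difference was -2.03 over the members and -0.076 over all genes. The 9 that did not pass were Plxnd1, Apln, Aplnr, Bmx, Prox1, Sele, Selp, Vcam1 and Procr. A fall or rise here means an adjusted p under 0.05 from limma, with Benjamini-Hochberg adjustment over 45037 probe sets. Each difference is the tumour mean less the mean of normal lungs, in units of log2(signal + 16), given ± SE with n = 6 arrays per group, and the added 16 makes those of dim genes smaller than they are. Signals are MAS5 signal units, and they compare arrays, not genes. In bulk tissue fewer endothelial cells and less RNA per cell cannot be told apart.

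**Figure D1:**
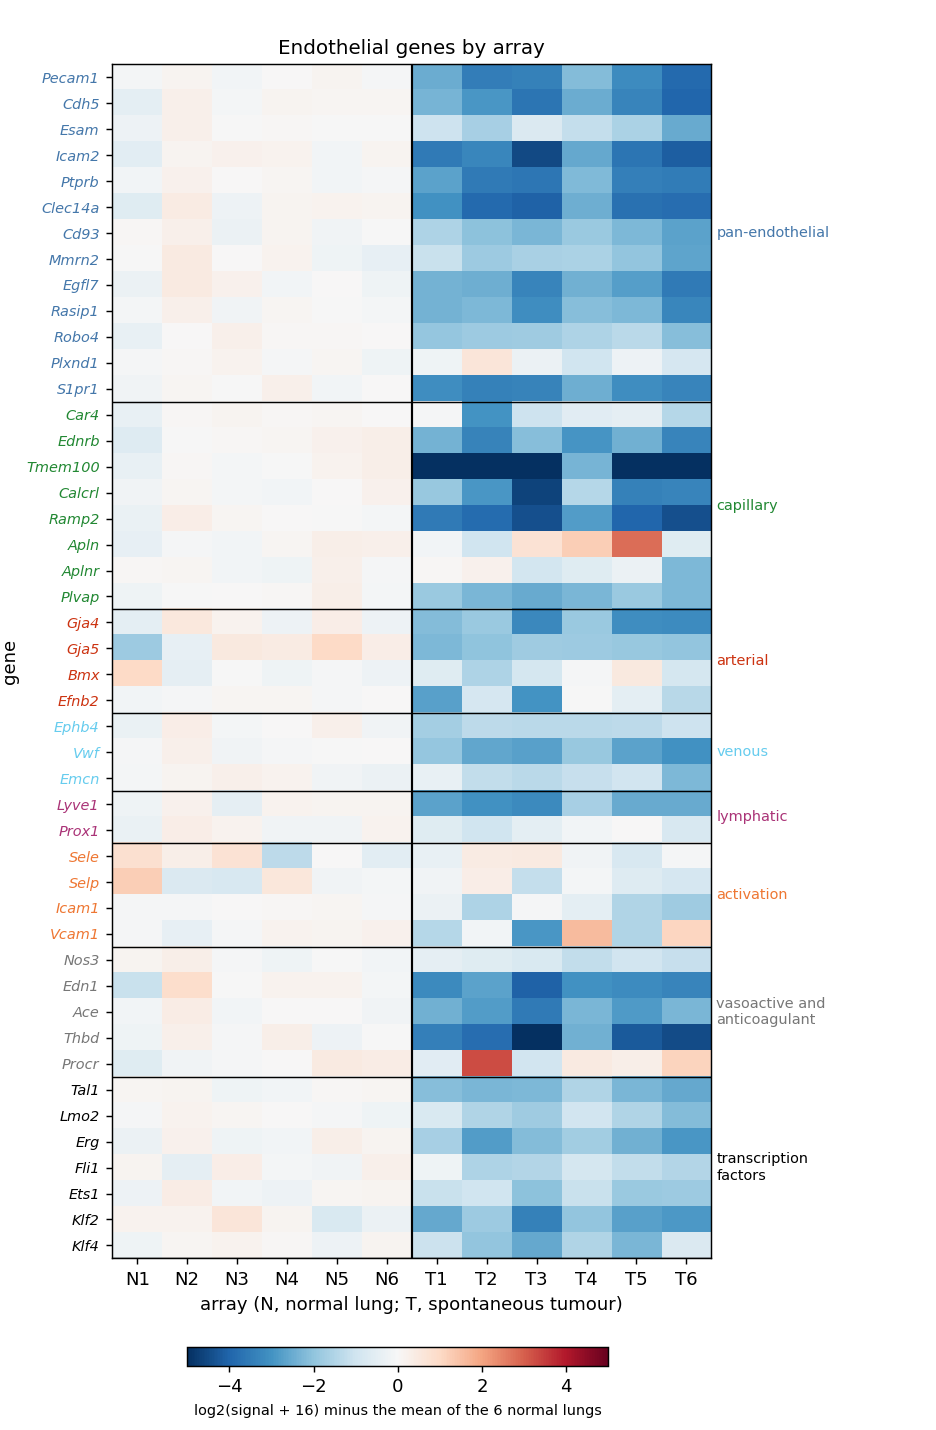
Log2 signal of the 46 endothelial genes (rows, grouped and coloured by role) in 6 normal lungs (N1 to N6) and 6 tumours (T1 to T6), as the difference from the mean of the normal lungs; colours end at 5 in either direction. Most rows are blue in all 6 tumours, with Tmem100 the darkest, while the rows of Apln, Procr and Vcam1 hold tumours in red.

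The median signal per array was 151 to 164 in normal lungs and 126 to 149.8 in tumours. All normal lungs and tumours 4 and 6 carried Xist, the RNA of the silenced X chromosome, and tumours 1, 2, 3 and 5 carried Eif2s3y, a Y-linked transcript. The groups thus differ in sex-linked transcripts, which cannot be told apart from tumour status for any tumour with Eif2s3y. Without those 4 tumours 37 members fell and 1 rose, and with Eif2s3y as a covariate 37 fell. Normal lungs 2 and 4 had the highest signals of the liver transcript Alb, 13843 and 13722 against 2069 or less in the other normal lungs, and without both 34 members fell. Tumours 2 and 6 had the highest signals of Ctse, a gastric protease, 18931 and 9189 against 3181 or less, while the gastrokine Gkn2 was highest in tumour 4 at 18975. Without tumours 2 and 6, 37 members fell and 1 rose. Scaling moved the median difference of all probe sets from -0.060 as deposited to 0.053 after quantile normalization and 0.13 after median centring, and the share of all calls that were higher from 41.9% to 50.6% and 61.9%. All 37 members that fell kept their direction under both scalings. Over other endothelial genes named as a separate list, 20 of 24 fell and 1 rose (median -2.45), and the smallest adjusted p-values were those of Gpihbp1 (-2.63 ± 0.13), the capillary anchor of lipoprotein lipase, Acvrl1 (-3.63 ± 0.20) and Eng (-2.85 ± 0.16), receptors for BMP ligands. The gene of that list that rose was Hhex (1.58 ± 0.30), a homeobox factor. Epithelial markers moved the other way, 6 of 7 rising, with a summed signal of 19227 to 22140.3 in normal lungs and 36984 to 121482 in tumours. None of the markers used here was listed at 0 on any array. The part of this shift in the endothelial differences was not tested.

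Of 13 pan-endothelial genes, 12 fell, with a median of -2.80. Pecam1, the junction adhesion protein CD31, had signals of 7036 to 8661 (median 7769) in normal lungs and 509 to 1716 (median 798) in tumours. Every tumour lay below every normal lung, and tumours 1 and 4 kept the most, at 1375 and 1716. The difference was -3.09 ± 0.23 (adjusted p = 3.85e-07), an 8.52-fold fall. Cdh5, the VE-cadherin that holds endothelial junctions together, had signals of 2839.9 to 4648 (median 4239) in normal lungs and 241 to 771 (median 450.0) in tumours. It fell by a like amount (-3.10 ± 0.25, adjusted p = 5.54e-07), again with no overlap of the groups.

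Icam2, a resting adhesion molecule for leukocytes, showed the largest difference among these 13 genes. Its signals were 5102 to 8523 (median 8019) in normal lungs and 306 to 1217 (median 594) in tumours, and the difference was -3.60 ± 0.26 (adjusted p = 2.56e-07). Close to it were Clec14a (-3.49 ± 0.25), a surface lectin of sprouting vessels, and Ptprb (-3.16 ± 0.22), the phosphatase VE-PTP that restrains Tie2. Another was S1pr1 (-3.11 ± 0.15), the sphingosine 1-phosphate receptor that tightens the barrier. S1pr1 had the smallest adjusted p of all members (2.23e-08), with signals of 3631 to 4846 (median 4077) in normal lungs and 376 to 736 (median 434) in tumours. Tumour 4 stood above the other tumours. Lymphocytes also make S1pr1, and 4 of 6 lymphocyte markers fell, with summed signals of 4413 to 14888 in normal lungs and 2811 to 6910.4 in tumours. Their part in the S1pr1 difference was not tested.

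Egfl7, a secreted protein of the vessel matrix, had signals of 7126 to 11750.4 (median 8324) in normal lungs and 740.0 to 1683 (median 1429) in tumours and fell (-2.80 ± 0.21). Its gene holds the endothelial microRNA miR-126, which restrains Vcam1 and feedback on growth factor signalling. The arrays do not measure the mature microRNA, whose RefSeq sequence is shown because the Egfl7 transcript is its host. Capitals mark the seed, bases 2 to 8 (GRCm38.p6, chr2:26591402-26591423, plus strand).
mmu-miR-126a-3p: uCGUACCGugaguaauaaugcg
All 4 Egfl7 probe sets fell. Rasip1 (-2.56 ± 0.20), needed for vessel lumens, and Cd93 (-2.11 ± 0.17), a lectin-like receptor, fell with it. Rasip1 signals were 1390.1 to 1842 (median 1501) in normal lungs and 147 to 340.0 (median 302) in tumours, and neither gene's groups overlapped. All 5 probe sets of Cd93 fell.

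Smaller falls were found for Mmrn2 (-1.79 ± 0.21), the matrix ligand of Clec14a and Cd93, Robo4 (-1.76 ± 0.15), a guidance receptor that stabilises vessels, and Esam (-1.45 ± 0.23), a tight junction adhesion molecule. Esam signals were 5534 to 7873 (median 6579) in normal lungs and 1143 to 4048 (median 2549) in tumours. Tumour 3 kept 4048, still below the lowest normal lung. Plxnd1, the semaphorin receptor, was the pan-endothelial gene that did not pass (-0.33 ± 0.21, adjusted p = 0.29, 95% interval -0.78 to 0.11). Its signals were 1182 to 1552 (median 1372) in normal lungs and 678 to 2066 (median 1132) in tumours. Tumour 2, at 2066, lay above every normal lung and the other 5 tumours below every normal lung. Without tumour 2 Plxnd1 passed as lower (-0.52 ± 0.15, adjusted p = 0.0235), as it did without the 4 tumours with Eif2s3y (-0.91 ± 0.14, adjusted p = 9.87e-04).

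**Figure D2:**
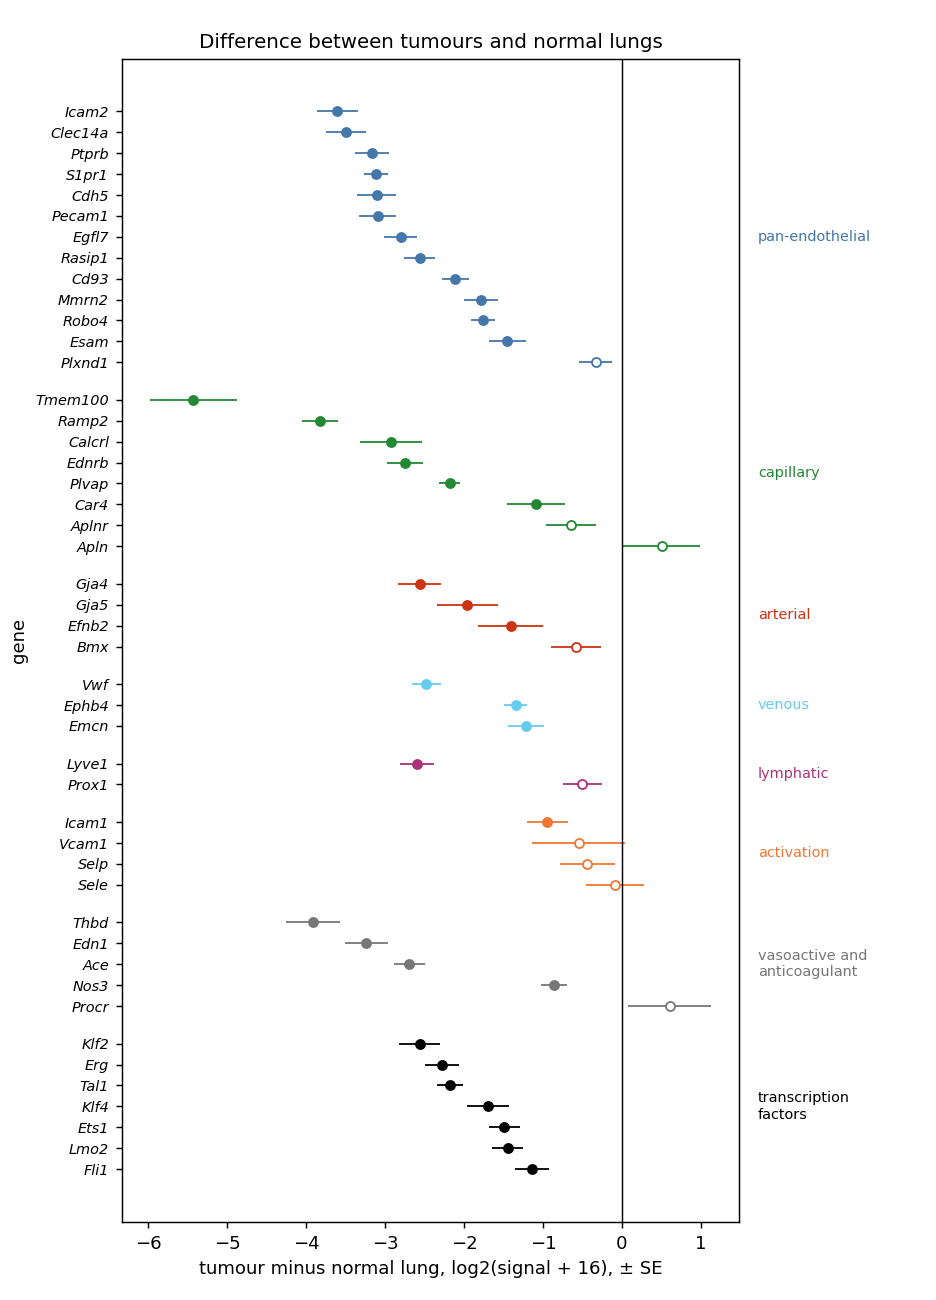
Difference between tumours and normal lungs for each gene, on the log2(signal + 16) scale, with bars of 1 standard error (6 arrays per group); filled points passed the threshold of 0.05 and open points did not, and genes are ordered within each role. Tmem100 lies farthest left at -5.43, and the open points are the 9 genes that did not pass.

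Of 8 capillary genes 6 fell, and their differences ran from -5.43 to 0.50, the widest range of the 8 roles. Tmem100, a small membrane protein downstream of Alk1 signalling, fell most of all members, 43-fold (-5.43 ± 0.55, adjusted p = 4.71e-06). Its signals were 6843 to 10933 (median 9006) in normal lungs and 56.3 to 1775 (median 136) in tumours. Tumour 4 held 1775, and the next tumour 201. The fall was 66.2-fold without tumour 4 (-6.05 ± 0.23), 19-fold without the 4 tumours with Eif2s3y (-4.25 ± 0.69), 20.9-fold with Eif2s3y as a covariate and 26.6-fold over the mean of its probe sets. Ramp2 and Calcrl together form the receptor for adrenomedullin, which keeps capillaries from leaking. Ramp2, with signals of 10148 to 16068 (median 12820.0) in normal lungs and 592 to 1844 (median 833) in tumours, fell by 3.82 ± 0.23 on the log2 scale (adjusted p = 8.96e-08). Calcrl fell too (-2.92 ± 0.40, adjusted p = 6.58e-05), but its tumours were spread from 442 in tumour 3 to 4208 in tumour 4, against 10149 or more in normal lungs. Its probe set of smallest adjusted p fell further (-3.68 ± 0.37).

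Ednrb, the endothelin B receptor of the alveolar capillary, had signals of 1832 to 3439.7 (median 3016) in normal lungs and 264 to 643 (median 441) in tumours, without overlap, and fell (-2.75 ± 0.23, adjusted p = 7.38e-07). Plvap, the diaphragm protein of fenestrae and caveolae, fell with little spread between tumours. Its signals were 6459 to 9356 (median 7551) in normal lungs and 1299 to 2095 (median 1560.0) in tumours, a difference of -2.18 ± 0.14 (adjusted p = 1.00e-07). Car4, the carbonic anhydrase that marks the large capillary cells of the alveolus, showed a much smaller and less secure difference (-1.09 ± 0.37, adjusted p = 0.042). Its signals were 3947 to 5628 (median 5356) in normal lungs and 635 to 4929 (median 3009) in tumours. Tumour 1, at 4929, lay within the normal range, and tumour 2, at 635, far below the rest. Car4 did not pass when any of normal lungs 2 to 6, or tumour 3 or 6, was left out (adjusted p up to 0.0762), with Eif2s3y as a covariate (adjusted p = 0.227), without normal lungs 2 and 4 (adjusted p = 0.131), after median centring and without the intensity trend. In the 7 cases with 1 array left out the difference itself stayed at -1.10 to -1.02. Without tumour 2 it was smaller and passed (-0.71 ± 0.20), as it was and did without tumours 2 and 6 (-0.53 ± 0.16).

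Apelin and its receptor were the capillary genes that did not pass. Apln, the peptide of sprouting tip cells, had a difference above 0 (0.50 ± 0.48, adjusted p = 0.513, 95% interval -0.53 to 1.54). Its signals were 760.5 to 1259.7 (median 1031) in normal lungs and 509 to 7293 (median 1321) in tumours. Tumour 5, at 7293, tumour 4, at 2409, and tumour 3, at 1720.3, lay above every normal lung, while tumours 2 and 6 lay below. Without tumour 5 alone the difference was 0.041 ± 0.33 (adjusted p = 0.95), and without tumours 2 and 6 Apln passed as higher (1.15 ± 0.40, adjusted p = 0.0464). Aplnr, the receptor on venous and general capillary cells, had a difference below 0 (-0.64 ± 0.32, adjusted p = 0.169, 95% interval -1.32 to 0.037). Tumours 1 and 2, at 3659 and 4130.3, lay among the normal lungs, which ran from 3027 to 4256, and tumour 6 was lowest at 726. Without tumour 6 the difference was -0.32 ± 0.19 (adjusted p = 0.257). The dimmer of the 2 Aplnr probe sets passed as lower (-0.69 ± 0.20, adjusted p = 0.018), as did Aplnr itself without the 4 tumours with Eif2s3y (-1.44 ± 0.32, adjusted p = 0.00985) and with Eif2s3y as a covariate (-1.28 ± 0.35, adjusted p = 0.0226).

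**Figure D3:**
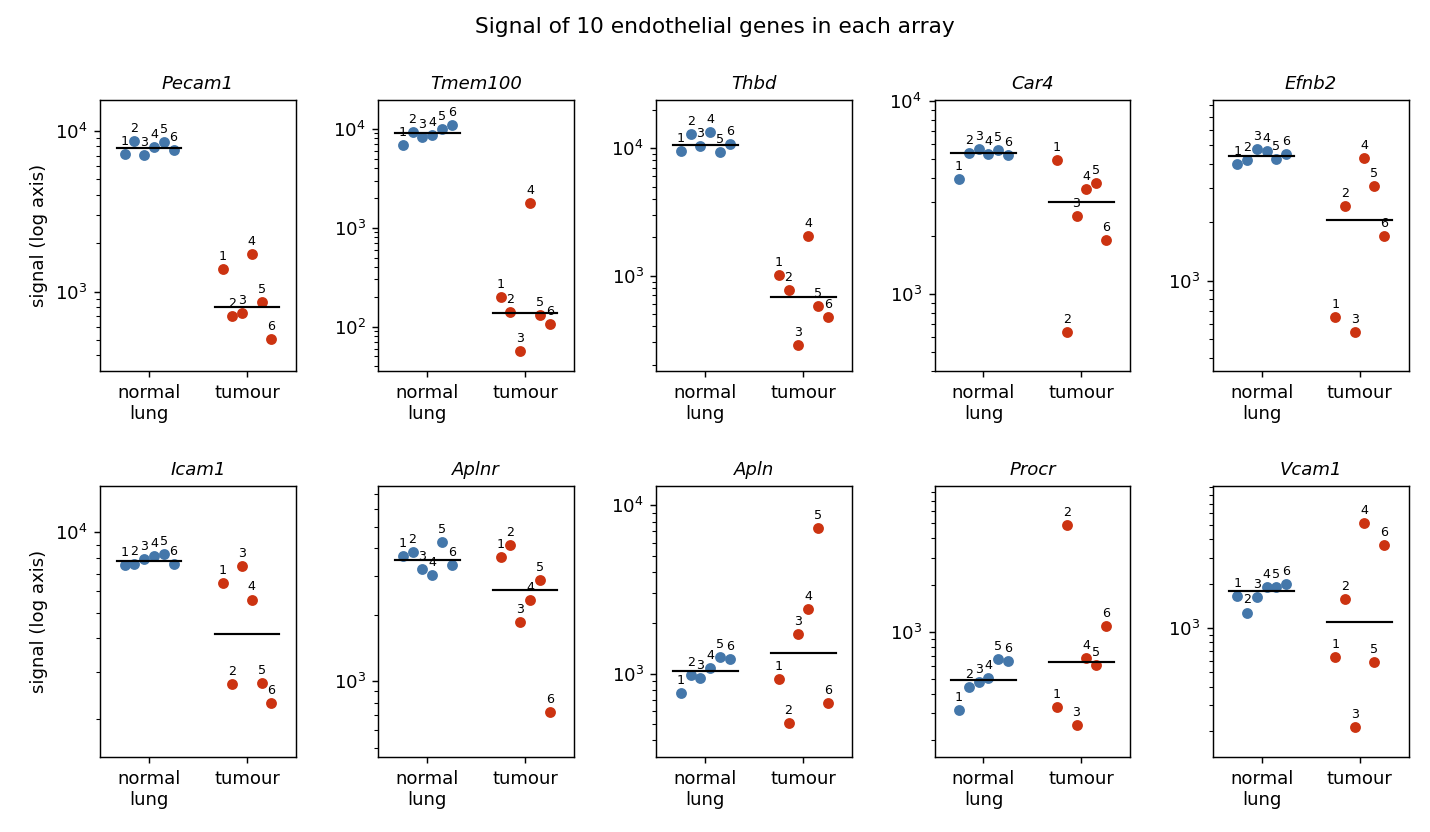
Signal of 10 of the genes in each normal lung (blue) and tumour (red), on a logarithmic axis; digits are replicate numbers and black lines the group medians. Pecam1, Tmem100 and Thbd do not overlap between the groups, whereas tumours are spread on both sides of the normal lungs for Apln, Procr and Vcam1.

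Arterial genes fell in 3 of 4 cases (median -1.68). Gja4, the connexin of arterial gap junctions, had signals of 1281 to 2588 (median 1779) in normal lungs and 177 to 495 (median 292) in tumours and fell without overlap (-2.56 ± 0.28, adjusted p = 8.18e-06). Gja5, another arterial connexin, was dim in both groups, under the median probe set, and fell (-1.96 ± 0.39, adjusted p = 0.00156). Its tumours lay at 4.02 to 11.8 and its normal lungs at 11.1 to 174, so that the groups met at normal lung 1, the lowest of these. With an offset of 1 or 64 in place of 16 the Gja5 fall was 7.99-fold or 2.07-fold, and it passed with both. Efnb2, the ephrin that sets arterial fate, fell on average (-1.41 ± 0.41, adjusted p = 0.0208) with a wide spread. Tumours 1 and 3 held 652 and 544, and tumour 4, at 4296, was within the normal range of 4014 to 4749.8. The Efnb2 call was lost without normal lungs 2 and 4 (adjusted p = 0.0769), and, with a difference of -0.70 each time, without the 4 tumours with Eif2s3y (adjusted p = 0.0971) and with Eif2s3y as a covariate (adjusted p = 0.4). Bmx, a kinase of arterial endothelium, did not pass (-0.58 ± 0.32, 95% interval -1.27 to 0.10), with 214 to 617 (median 269) in normal lungs and 91.5 to 424 (median 173) in tumours. Normal lung 1 was well above the other normal lungs.

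All 3 venous genes fell. Vwf, the clotting factor stored by larger vessels, had signals of 7829.7 to 10572 (median 8588) in normal lungs and 1065 to 2324 (median 1388) in tumours (-2.47 ± 0.18, adjusted p = 2.91e-07). Ephb4, the venous receptor of Efnb2, fell less (-1.34 ± 0.15, adjusted p = 8.33e-06), with every tumour between 311 and 492 and every normal lung at 806 or more. Emcn, a sialomucin of veins and capillaries, also fell (-1.21 ± 0.23, adjusted p = 0.00125). Tumour 1, at 1395, came closest to the normal lungs, whose lowest was 1479. Platelets carry Vwf and Selp too, and 5 of 7 platelet markers fell, their summed signal being 3205 to 10359 in normal lungs and 2501 to 20792 in tumours. Of this sum Pf4 alone, which did not pass (1.41 ± 0.52), had 1071 to 2273 in normal lungs and 1430 to 19582 in tumours. The part of platelets in the Vwf difference was not tested.

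Of the 2 genes listed as lymphatic, Lyve1, a hyaluronan receptor, fell (-2.60 ± 0.21, adjusted p = 7.44e-07). Its signals were 3298 to 5172 (median 4959) in normal lungs and 487 to 1411 (median 736) in tumours, with tumour 4 the highest of the tumours. Both Lyve1 probe sets fell. Prox1, the factor that sets lymphatic identity, was under the median probe set in both groups and did not pass (-0.50 ± 0.24, 95% interval -1.02 to 0.021). Other lymphatic genes, Mmrn1 (-2.05 ± 0.31), Flt4 (-1.56 ± 0.19) and Reln (-1.43 ± 0.18), all fell. Lyve1 is also made by macrophages around vessels, whose markers fell in 3 of 5 cases and rose in 1. In normal lungs nearly all of their summed signal, 34569 to 49369, was that of Cbr2, which airway epithelium also makes in quantity. In tumours the sum was 6259.8 to 36127 and Cbr2 alone 1540 to 30632, so that its share differed between tumours. The other 4 markers summed to 1872 to 4187 in normal lungs and 1892 to 5495 in tumours, Mrc1 being the one that rose. The part of these macrophages in the Lyve1 difference was not tested. Whether the Lyve1 signal came from lymphatic or from blood vessel endothelium was not tested either.

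Of the 4 activation genes, which inflamed endothelium displays to leukocytes, 1 fell, and their median of -0.49 was the smallest of the 8 roles. Icam1, the ligand of leukocyte integrins, had signals of 7531 to 8322 (median 7791) in normal lungs and 2297 to 7470.5 (median 4162) in tumours and fell (-0.94 ± 0.26, adjusted p = 0.0162). Tumour 3, at 7470.5, nearly reached the lowest normal lung, and tumours 2, 5 and 6 were between 2297 and 2725. The Icam1 call was lost without tumours 2 and 6 (-0.59 ± 0.22, adjusted p = 0.0585) and without normal lungs 2 and 4 (adjusted p = 0.0643). Alveolar type I cells are rich in Icam1 as well: 6 of 7 type I markers fell, their summed signal being 86462 to 108713 in normal lungs and 25216 to 57154 in tumours, and their part was not tested.

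Vcam1, the ligand of lymphocyte and monocyte integrins, did not pass (-0.55 ± 0.59, adjusted p = 0.558, 95% interval -1.80 to 0.70). Its tumours covered 213 to 5154, while normal lungs lay between 1276 and 2006. Tumours 4 and 6, at 5154 and 3652, were above every normal lung, and tumours 1, 3 and 5, at 634, 213 and 589.7, below every one. Tumours 4 and 6 are those with Xist. Without the 4 tumours with Eif2s3y the direction turned and Vcam1 passed as higher (1.33 ± 0.19, adjusted p = 6.11e-04), a comparison of 2 tumours with 6 normal lungs. Sele, or E-selectin, was under the median probe set in both groups (-0.091 ± 0.37, 95% interval -0.88 to 0.69), and the groups overlapped fully. Selp, the P-selectin of platelets and endothelium, did not pass (-0.44 ± 0.35, 95% interval -1.18 to 0.30), with 143 to 631 (median 237) in normal lungs and 105 to 334 (median 195) in tumours.

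Among 5 genes that set vessel tone and keep blood from clotting, 4 fell. Thbd, the thrombomodulin that turns thrombin into an anticoagulant, fell 15-fold (-3.91 ± 0.34, adjusted p = 1.18e-06). Its signals were 9263 to 13287 (median 10577) in normal lungs and 284 to 2057 (median 677) in tumours. Tumour 3 was lowest and tumour 4 highest. Edn1, the vasoconstrictor endothelin 1, had signals of 1264 to 5073 (median 2940.2) in normal lungs and 154 to 419 (median 294) in tumours (-3.23 ± 0.28, adjusted p = 1.05e-06), with normal lung 1 the lowest and normal lung 2 the highest of the normal lungs. Ace, which converts angiotensin on lung capillaries, fell on both its probe sets (-2.69 ± 0.19 and -3.49 ± 0.22). Nos3, the nitric oxide synthase of endothelium, fell less (-0.86 ± 0.16, adjusted p = 0.00116), with 416 to 606 (median 473) in normal lungs and 198 to 349 (median 263) in tumours.

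Procr, the protein C receptor that works with thrombomodulin, did not pass (0.60 ± 0.53, adjusted p = 0.463, 95% interval -0.52 to 1.73). Normal lungs lay between 314 and 671. Tumour 2 reached 4878 and tumour 6 1098, whereas tumours 1 and 3 held 327 and 249. Without tumours 2 and 6 the sign of the Procr difference turned (-0.19 ± 0.27). Tumours 2 and 6 had the highest mean log2 level of the epithelial markers, 13.7 and 13.1, with the other tumours between 11.8 and 12.4, and the part of epithelial RNA in the Procr signal was not tested.

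All 7 transcription factors fell (median -1.69). Erg, the ETS factor that maintains endothelial identity, had signals of 919 to 1404 (median 1149) in normal lungs and 138 to 348 (median 222) in tumours (-2.28 ± 0.22, adjusted p = 2.59e-06). Tal1, a helix-loop-helix factor of blood and endothelial progenitors, was of like size (-2.17 ± 0.17, adjusted p = 4.19e-07), and its cofactor Lmo2 fell less (-1.45 ± 0.20). Of 4 erythroid markers 2 fell, Alas2 (-4.81 ± 0.70) and Slc4a1 (-1.78 ± 0.54), and 2 did not pass. The part of erythroid RNA in the Tal1 and Lmo2 differences was not tested. The ETS factors Ets1 (-1.49 ± 0.20) and Fli1 (-1.13 ± 0.22) are also made by leukocytes. Lymphocyte markers mostly fell, as given above, whereas of 10 macrophage markers 6 rose and 1 fell (median 1.11). The macrophage markers summed to 40972 to 57731 in normal lungs and 37198 to 67973 in tumours. Of this sum Lyz2 alone, which did not pass (-0.059 ± 0.18), had 28685 to 41647 in normal lungs and 21183 to 42598 in tumours. The part of leukocyte RNA in the Ets1 and Fli1 differences was not tested. Tumour 1, at 1102, was inside the normal range of Fli1, 938 to 1611. Klf2, the factor that blood flow induces and that drives Thbd and Nos3, had signals of 3100.1 to 7951 (median 5868) in normal lungs and 494 to 1470.4 (median 830.2) in tumours (-2.56 ± 0.26, adjusted p = 4.97e-06). Its relative Klf4 fell less (-1.69 ± 0.26, adjusted p = 2.19e-04), with tumours 1 and 6 at 2313 and 2991 and the others at 1694 or less. Without the 4 tumours with Eif2s3y the Klf4 difference was -1.11 ± 0.21.

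Promoters were read for short cores of ETS, KLF and GATA factors, and binding was not measured. RefSeq windows of 300 bases around the transcription start, most of each window before it, were at hand for 26 of the 46 genes, 33 windows in all (GRCm38.p6). The ETS core AGGAAG, read on both strands, was in 13 of these 33 windows (39.4%) and in 35.4% of all 32851 windows. The KLF core CACCC was in 22 (66.7%, against 57.5%) and the GATA core AGATAA in 3 (9.1%, against 11.2%). Of the 25 windows of genes that fell, 9 held AGGAAG. The 6 windows with 2 or more AGGAAG came from 5 genes, where 8.6% of all windows have as many. 1 window a gene is shown to set 3 genes that fell, Egfl7, Emcn and Ace, beside 2 that did not pass, Plxnd1 and Selp. AGGAAG or its reverse complement CTTCCT is in capitals.
Egfl7 (chr2:26580833-26581132, plus strand): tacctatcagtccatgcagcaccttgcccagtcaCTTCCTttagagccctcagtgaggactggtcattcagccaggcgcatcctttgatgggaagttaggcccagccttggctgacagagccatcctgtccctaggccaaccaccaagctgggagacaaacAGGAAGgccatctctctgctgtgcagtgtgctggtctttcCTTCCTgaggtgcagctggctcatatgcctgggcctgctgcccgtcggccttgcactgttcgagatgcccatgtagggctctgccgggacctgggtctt
Emcn (chr3:137340828-137341127, plus strand): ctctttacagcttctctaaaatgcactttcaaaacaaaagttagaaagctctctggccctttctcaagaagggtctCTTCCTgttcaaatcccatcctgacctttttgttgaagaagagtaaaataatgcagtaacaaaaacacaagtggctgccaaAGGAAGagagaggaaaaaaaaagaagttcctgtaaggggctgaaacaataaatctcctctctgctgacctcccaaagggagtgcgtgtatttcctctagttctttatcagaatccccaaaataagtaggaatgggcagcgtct
Ace (chr11:105967698-105967997, plus strand): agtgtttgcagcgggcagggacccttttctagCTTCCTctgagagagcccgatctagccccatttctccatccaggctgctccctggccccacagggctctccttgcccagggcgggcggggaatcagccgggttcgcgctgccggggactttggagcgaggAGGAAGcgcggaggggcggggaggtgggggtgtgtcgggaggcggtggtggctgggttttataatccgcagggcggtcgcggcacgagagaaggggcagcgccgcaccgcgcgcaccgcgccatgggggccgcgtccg
Plxnd1 (chr6:115994956-115995255, minus strand): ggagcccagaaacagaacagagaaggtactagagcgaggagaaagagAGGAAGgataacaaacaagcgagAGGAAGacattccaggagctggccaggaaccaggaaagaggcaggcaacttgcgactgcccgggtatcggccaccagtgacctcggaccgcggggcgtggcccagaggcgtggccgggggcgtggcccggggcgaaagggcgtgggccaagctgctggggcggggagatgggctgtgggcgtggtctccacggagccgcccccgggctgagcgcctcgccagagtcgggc
Selp (chr1:164115014-164115313, plus strand): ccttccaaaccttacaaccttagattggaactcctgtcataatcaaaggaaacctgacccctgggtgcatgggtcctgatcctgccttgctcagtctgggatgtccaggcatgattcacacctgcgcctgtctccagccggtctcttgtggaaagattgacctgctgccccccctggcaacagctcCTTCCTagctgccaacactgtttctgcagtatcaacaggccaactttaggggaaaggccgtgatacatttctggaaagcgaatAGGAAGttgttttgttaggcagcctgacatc
The Egfl7 window held 3 matches, the others 2 each. A match describes these letters and is no binding site, and genes that fell and genes that did not pass both held them.

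To ask which members changed unequally with general endothelial genes, each array's mean log2 signal of Pecam1, Cdh5, Esam and Clec14a was subtracted before the fit. This reference was 12.16 to 12.78 in normal lungs and 8.98 to 10.45 in tumours, highest in tumours 4 and 1 and lowest in tumour 6. Esam fell less than the other 3 reference genes. Relative to the reference, Esam differed by 1.33 ± 0.26, Pecam1 by -0.31 ± 0.23, Cdh5 by -0.32 ± 0.23 and Clec14a by -0.71 ± 0.24. Before the subtraction Esam differed by -1.45, and Pecam1, Cdh5 and Clec14a by -3.09, -3.10 and -3.49. A reference without Esam would thus fall further, and every relative difference would be higher by the same amount. Icam2, at -3.60 before the subtraction, was close to Clec14a. No fit left Esam out of the reference, so how far the calls against the reference rest on Esam was not tested. Against the reference of 4 genes, 4 of 42 members were lower, where 0.473% of all genes were. Higher were 25 members, where 96.4% of all genes were. The reference itself fell, so few genes of any kind lay below it. Of the 24 other endothelial genes 4 were lower and 12 higher. Of 9 smooth muscle and pericyte markers 2 were lower and 5 higher, so lying below the reference was not particular to the members. A ratio within an array shows only that changes were unequal.

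The 4 that fell beyond the reference were Tmem100 (-2.64 ± 0.39, adjusted p = 5.51e-07), Thbd (-1.13 ± 0.28, adjusted p = 4.73e-04), Ramp2 (-1.04 ± 0.24, adjusted p = 2.21e-04) and Icam2 (-0.82 ± 0.26, adjusted p = 0.0043). Of these, Tmem100 passed in all 25 alternative settings, but its relative difference was -1.44 ± 0.46 in tumours 4 and 6 alone and -1.58 ± 0.42 once Eif2s3y was a covariate. Over these settings the count of members lower than the reference ran from 1 to 5, and Edn1 passed as lower in 3 and Ace in 2. Without the 4 tumours with Eif2s3y the other 3 did not pass, and with Eif2s3y as a covariate Ramp2 passed and Thbd and Icam2 did not. Another 13 members, among them Egfl7 (-0.017 ± 0.25), Ednrb (0.038 ± 0.28), Gja4 (0.22 ± 0.27), Vwf (0.31 ± 0.23), Lyve1 (0.19 ± 0.26) and Klf2 (0.23 ± 0.31), did not pass the test against the reference.

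Over all genes 96.4% were higher than the reference, so the counts given here do not set a role apart. Members that fell less than the reference or did not fall included all 4 activation genes, from Icam1 (1.84 ± 0.28) to Sele (2.69 ± 0.46). They also included 6 of 7 transcription factors, from Erg (0.50 ± 0.24) to Fli1 (1.65 ± 0.27). Among pan-endothelial genes they were Cd93 (0.68 ± 0.25), Mmrn2 (0.996 ± 0.25), Robo4 (1.02 ± 0.27) and Plxnd1 (2.45 ± 0.31), and among capillary genes Plvap (0.60 ± 0.27), Car4 (1.70 ± 0.32), Aplnr (2.14 ± 0.30) and Apln (3.29 ± 0.42). The vein genes Ephb4 (1.44 ± 0.29) and Emcn (1.57 ± 0.25), and the arterial Efnb2 (1.38 ± 0.40) and Bmx (2.20 ± 0.37), were among them. So were the lymphatic Prox1 (2.28 ± 0.36) and Nos3 (1.92 ± 0.30) and Procr (3.39 ± 0.51). Dim genes such as Sele and Prox1 had little room to fall on this scale. Of the genes higher than the reference, Erg passed in 9 of 25 alternative settings, Plvap in 11 and Tal1 in 16, so that these calls depend on the setting. Cd93 passed in 23 and Mmrn2 in 24, and the others in every setting where they were tested.

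**Figure D4:**
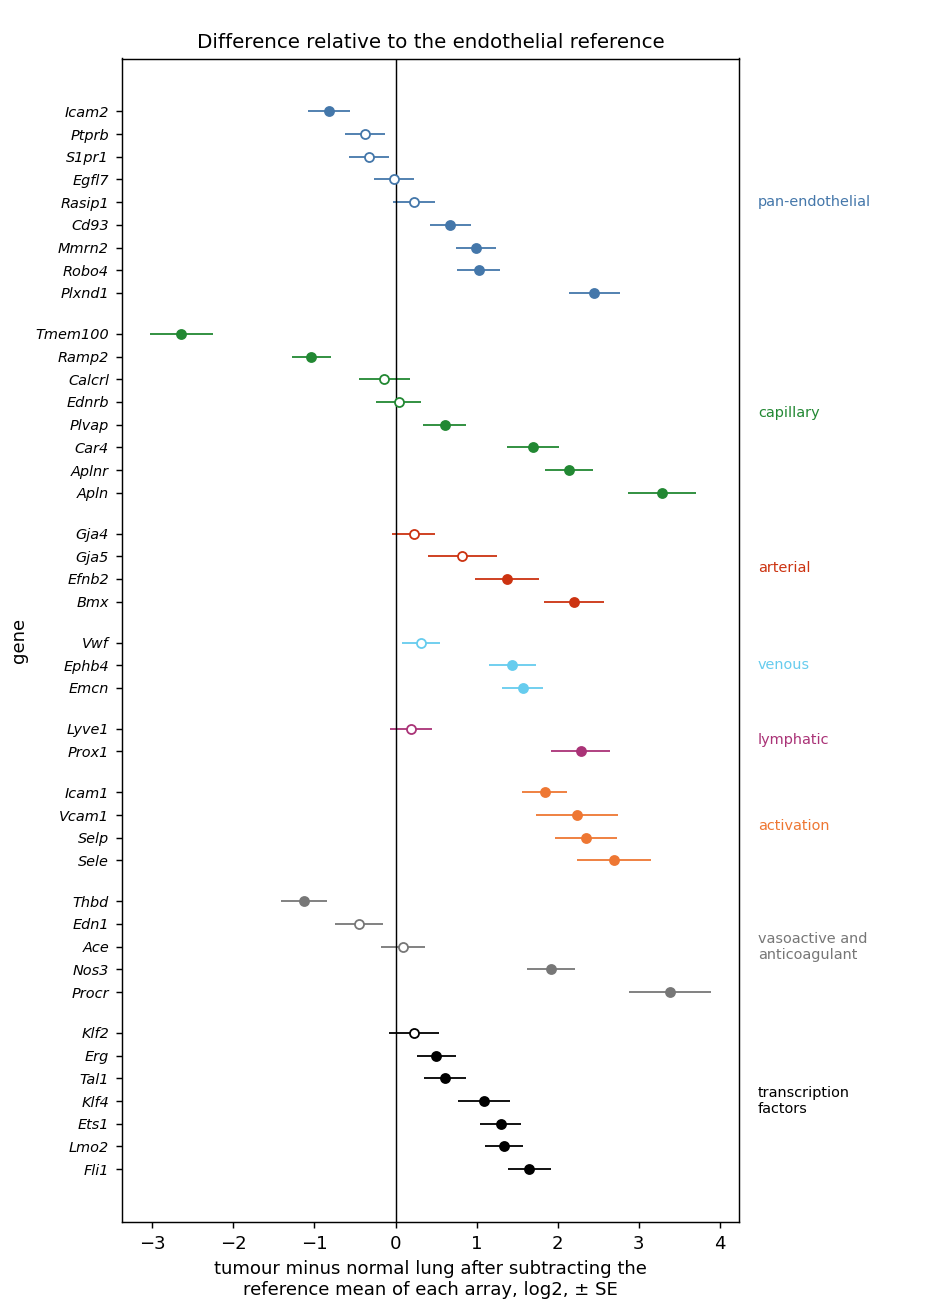
Difference between tumours and normal lungs after each array's mean log2 signal of Pecam1, Cdh5, Esam and Clec14a was subtracted, with bars of 1 standard error (6 arrays per group); filled points passed the threshold of 0.05. Tmem100 is farthest to the left at -2.64, and Procr and Apln are farthest to the right.

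Tumours differed among themselves more than normal lungs did. The SD of log2 signals was larger over tumours for 41 of 46 members, and for 69.4% of all genes. Of the 37 genes that fell, tumour 4 had the highest tumour value for 15 and tumour 1 for 11, while tumours 3 and 6 had the lowest for 15 each. The median of these genes below the normal mean was -1.85 in tumour 4 and -2.18 in tumour 1, and -2.70 in tumour 3 and -2.69 in tumour 6. The widest spread over tumours was that of Tmem100, where the highest tumour was 31.5 times the lowest, followed by Vcam1 (24.2 times), Procr (19.6 times) and Apln (14.3 times). Smooth muscle and pericyte markers fell in 7 of 9 cases, with Myh11 (-3.86 ± 0.22) and Tagln (-2.45 ± 0.25). Rgs5, a pericyte gene, was the only marker of this list that rose (3.03 ± 0.27). Notch3 (-1.12 ± 0.16) and Cspg4 (-0.76 ± 0.24) of the same list fell, and Pdgfrb did not pass (-0.40 ± 0.18).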

How the data were processed

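RNA of 12 mouse lung samples was hybridised to Affymetrix mouse arrays, 1 array each. The authors deposited linear MAS5 signal intensity, scaled to a common level, per the submitters' processing notes and the values. Versions and other settings are not given in the sources used here. Of 45101 probe sets, 64 controls were left out. Of the 45037 tested, 34945 carried 1 gene symbol, 932 several and 9160 none in the platform annotation, and probe sets with several or none named no gene. That left 18193 genes, each taken as its probe set with the highest mean log2 signal.

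Groups came from the sample titles. Log2(signal + 16) was compared with limma 3.58.1 in R 4.3.3 (eBayes with an intensity trend, no block, 6 against 6 arrays), with Benjamini-Hochberg adjustment over all 45037 probe sets and a threshold of 0.05. The relative comparison subtracted each array's mean log2 signal of 4 endothelial genes first. Array numbers limit the precision. On simulated data with 50 planted changes of each size over 45037 probe sets, limma recovered 0% of log2 changes of 0.5, 44% of 1, 78% of 2 and 96% of 3. Far more changed in the data, where 17.4% of genes fell and 12.1% rose. The Benjamini-Hochberg adjustment is stricter when few probe sets change, so these shares do not give the recovery in the data. All 46 genes are named in the text; other genes are the 3 of smallest p of their list and those that went against it or are named beside a result (Alb, Ctse and Gkn2 were chosen after values were seen). Members, gene lists, reference genes and alternatives were chosen with earlier results of these data known. Offsets, scalings, a filter on dim probe sets, the probe set rule, array weights, a replicate block and left-out arrays were tried. Promoter and microRNA sequences are from RefSeq (GRCm38.p6).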

Additional observations from a re-analysis of the deposited data

Results flagged for a closer look

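Within each group of 6 arrays, the highest or lowest array stood apart from the others by Dixon's criterion at the 95% level, on the log2 scale, in 6 of 92 tests, where chance gives about 1 in 20. Tumour 4 was high for Tmem100, at a signal of 1775 against 56.3 to 201 in the other tumours, and for S1pr1, at 736 against 376 to 467. Normal lung 1 was low for Car4, at 3947 against 5274 to 5628 in the other normal lungs, and for Ednrb, at 1832 against 2775 to 3439.7. The same normal lung was high for Bmx, at 617 against 214 to 295. Normal lung 2 was high for Ace, at 5498 against 3755 to 4289.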

How the results depend on the processing

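Over 27 alternatives, 33 of the 37 genes that fell passed in each (exceptions Car4, Gja5, Efnb2 and Icam1), and 5 of the 9 not called passed in none (exceptions Plxnd1, Apln, Aplnr and Vcam1). The count of genes that fell ran from 34 to 38, and from 36 to 38 with 1 array left out. That of the other endothelial genes stayed at 20. The count of genes that rose was 1 without the 4 tumours with Eif2s3y (Vcam1) and 1 without tumours 2 and 6 (Apln). Genes lower than the endothelial reference were 4, and 1 to 5 over the alternatives: 1 once the Eif2s3y-carrying tumours were dropped and 2 with that transcript as covariate, and genes higher than it 20 to 29. The direction turned for Sele, from -0.091 to 0.090 after quantile normalization and 0.098 after median centring. With 1 array left out it ran from -0.36 to 0.069, above 0 without normal lung 1 or 3 or tumour 5. It turned for Vcam1, to 1.33 without the 4 tumours with Eif2s3y and 1.01 with the covariate, and for Procr, to -0.19 without tumours 2 and 6; the cause was not tested. Gja5 lost its call without the 4 tumours with Eif2s3y (limma adjusted p = 0.0618), where 2 tumours were left and its difference was -1.90, against -1.96. Deviations of arrays with the same replicate number in their titles correlated at -0.0271 to 0.021, and with the replicate block 37 genes fell. The 4 tumours with Eif2s3y differed in sex-linked transcripts from all normal lungs, those of the same number included. For the other tumours such correlations show no pairing but cannot exclude it. Taking a gene as its probe set of highest linear mean was chosen after seeing the data. Signals of Gja5, Prox1 and Sele were under the median probe set in both groups, which limits what their differences show.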
